A study of Mus musculus with 444 samples.

Results

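The genes described here make, store and export fat in the mammary gland: Ppara, Fasn, Scd1, Scd2, Acly, Acaca, Plin2, Xdh, Btn1a1 and Lpl. They were chosen by name and matched through the Entrez gene identifiers of the count tables, and all 10 were found among the 25136 genes used. They were followed in single epithelial cells of FVB/NJ mice, an inbred strain, with no treatment given. The study compared glands at puberty, which its methods place at 5 weeks of age although names in the deposit carry 4, with adult glands at 10 weeks, to follow how epithelial lineages emerge. Cells were taken after removal of blood and endothelial cells, pooled from 6 pubertal or 4 adult mice per sort, and captured 1 per chamber on a Fluidigm C1 device. The labels name neither the animal nor the capture of a cell, so each stage stood as 1 sample. No test was made, and every interval given below is a 95% interval that covers counting error only, since reads amplified without molecular identifiers are not independent molecules.

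Fatty acids are built in the cytosol from acetyl-CoA. ATP citrate lyase, the product of Acly, cleaves citrate to acetyl-CoA, the acetyl-CoA carboxylase of Acaca turns it into malonyl-CoA, and the fatty acid synthase of Fasn assembles the saturated chain, into which the stearoyl-CoA desaturases of Scd1 and Scd2 place a double bond. Lipoprotein lipase, from Lpl, releases fatty acids from circulating lipoproteins for uptake, perilipin 2, from Plin2, coats the cytosolic lipid droplet, and butyrophilin, from Btn1a1, and xanthine dehydrogenase, from Xdh, wrap the droplet in plasma membrane as the milk fat globule leaves the secretory cell. Ppara encodes a nuclear receptor that turns on genes of fatty acid oxidation. Caseins, the main proteins of mouse milk, are made by the same secretory cells.

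Of the 221 pubertal and 223 adult cells, 171 and 152 had at least 100000 read pairs on the genes used and at least 1500 genes detected. Retained cells held 100883 to 1354378 read pairs, and each was thinned to 100000, so that 1 read equals 10 CPM (counts scaled to a common total). Clusters made on lineage markers, without any of the 10 genes or a casein, gave 56 luminal progenitor-like, 143 mature luminal-like and 83 basal-like cells. Another 41 cells had no list of epithelial markers raised and stayed unnamed, with Mfap5, Fn1, Prrx1 and Col1a1 among their leading genes. Their summed level of 8 fibroblast markers was 6885 CPM, against 222 to 589 CPM in the named clusters. When 6 clusters were cut in place of 4, the 143 mature luminal-like cells split into 104 mature luminal-like, 37 basal-like and 2 unnamed cells. The 37 had 10 of 12 basal markers raised, and the other clusters kept their numbers of cells. Ratios by class below use the 4 clusters, so the mature luminal-like class includes these 37 cells. The adult cells numbered 48 to 188 in their titles stood apart, since all 107 of those retained had reads of the small nuclear RNA gene Rn7sk, against 8 of the other 45. These 2 adult sets differed in median genes per cell (2836 and 2192) and in make-up, with 57 of 107 and 9 of 45 cells basal-like, so the ratios of puberty over adult are also given against each set.

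Scd1 (chromosome 19, 44394450 to 44407709) and Scd2 (chromosome 19, 44293676 to 44306864) are neighbours in mm10 and close relatives, and they went opposite ways in several comparisons, so their sequences are shown first. Over 1065 aligned bases of coding sequence they were 90.3% identical, with an identical run of 147 bases. In both genes a part of this run lies in exon 4, within the coding sequence. A stretch of 75 bases of it, the shorter read length in the study's methods, reads the same, with no base in capitals.
Scd1, chr19:44401812-44401886, minus strand: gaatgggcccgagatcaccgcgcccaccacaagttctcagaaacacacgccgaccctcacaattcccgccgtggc
Scd2, chr19:44299621-44299695, plus strand: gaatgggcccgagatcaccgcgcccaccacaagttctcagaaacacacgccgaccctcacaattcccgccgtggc
The stretch of the same length that differs most lies in coding exon 2, and capitals mark its 29 differing bases.
Scd1, chr19:44406632-44406706, minus strand: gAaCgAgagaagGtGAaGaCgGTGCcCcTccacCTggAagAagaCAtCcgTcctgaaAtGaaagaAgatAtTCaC
Scd2, chr19:44294967-44295041, plus strand: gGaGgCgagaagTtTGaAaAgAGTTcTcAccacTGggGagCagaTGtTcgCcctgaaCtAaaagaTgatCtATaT
Of all 75-base stretches of the transcripts in the GENCODE vM21 annotation of the same assembly, 79 were shared, which is 1.66% of those of Scd1 and 1.47% of those of Scd2. A single read that falls wholly in such a stretch cannot be assigned to 1 gene by itself. Read pairs were counted, so its mate may still tell the genes apart. How the authors' counting treated such reads was not stated.

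The 10 genes were sparse, and the lowest value of each was 0 CPM at either stage. The share of cells with a read of a gene after thinning ranged from 0.585% (Ppara) to 47.4% (Acly) in puberty and from 3.29% (Ppara) to 55.9% (Scd1) in the adult. The median cell had reads of 2 of the 10 genes at either stage, and 15 pubertal and 17 adult cells had none. Cells with reads of 5 or more were rarer in puberty, with 5 of 171 (2.92%) against 24 of 152 (15.8%) in the adult. Of those 24 adult cells, 21 were among the 107 cells numbered 48 to 188 and 3 among the other 45.

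Per kilobase of exon, Plin2 and Scd1 led at both stages. In the adult the summed level was 66.2 for Plin2 in CPM per kilobase of exon (RPKM) and 63.5 RPKM for Scd1, and their counting intervals overlap. Btn1a1 followed at 21.9 RPKM, then Acly at 16.6 RPKM. Lpl at 8.14 RPKM and Fasn at 7.14 RPKM could not be ranked against each other within counting error, and neither could Acaca at 2.00 RPKM and Xdh at 1.98 RPKM. Scd2 lay between these pairs at 4.04 RPKM, and Ppara was lowest at 1.19 RPKM. In puberty Plin2 had 50.2 RPKM, Scd1 34.1 RPKM and Lpl, now in the third place, 19.6 RPKM. Acly had 15.8 RPKM, ahead of Btn1a1 and Scd2, which were within counting error of each other at 12.1 and 11.3 RPKM. Fasn, at 1.13 RPKM, was below Acaca at 1.99 RPKM.

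**Figure D1:**
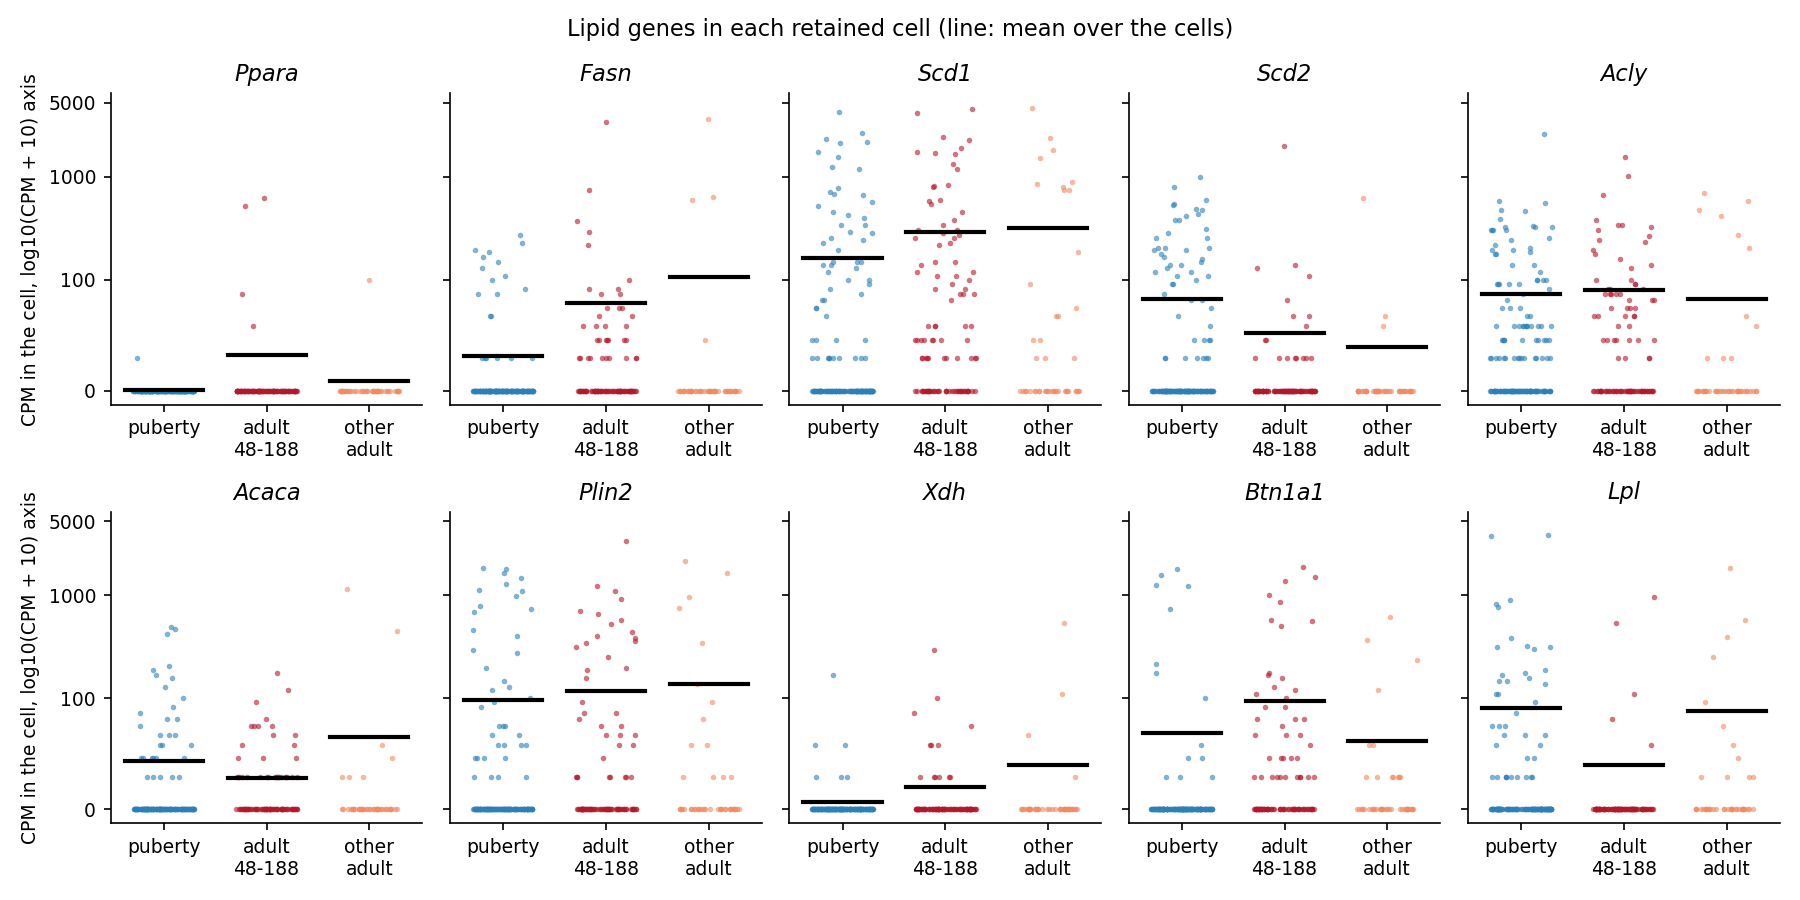
CPM of each of the 10 genes in every retained cell (points, log10 axis of CPM + 10) for 171 pubertal cells, 107 adult cells numbered 48 to 188 and 45 other adult cells; the line is the mean over the cells. Most cells of a set sit at 0 for a gene, except for Scd1 in adult cells 48 to 188, where 61.7% have reads. A few cells carry most of the Fasn, Ppara and Xdh reads.

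Between the stages, Fasn was lower in puberty and Scd2 and Lpl were higher, by more than the 2-fold difference used here to call a gene. A gene entered this comparison if it reached 20 CPM at 1 stage, and 7 of the 10 did, with Ppara, Acaca and Xdh below that level. Of these 7 genes, 2 were called higher in puberty, where 20.3% of all 7806 genes tested were, and 1 was called lower, where 14.7% were. The median of their log2 ratios (puberty over adult) was -0.40, against 0.09 for all genes tested. At this list size these counts do not stand apart from the background. Against adult cells 48 to 188, 2 of 7 were called higher (26.3% of all genes) and 2 lower (16%), and against the other adult cells 1 of 8 higher (28.7%) and 2 lower (20.6%). The adult sets differed between themselves by about as much, with Btn1a1 called higher in cells 48 to 188 (26.6% of all genes) and Acaca and Lpl lower (28.5%).

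Fasn (chromosome 11, 120805958 to 120825166), the synthase, had reads in 20 of 171 pubertal cells (11.7%, 7.29 to 17.5%), with a median of 75 and a highest value of 280 CPM among those cells. In the adult it had reads in 40 of 152 cells (26.3%, 19.5 to 34.1%), with a lower median of 30 CPM but a highest value of 3560 CPM. Summed over cells, it reached 11.2 CPM in pubertal and 70.9 CPM in adult cells, and the log2 ratio was -2.66 (-2.89 to -2.44). A few adult cells thus held most of the adult reads, 33.0% of them in the highest cell. Leaving out the highest cell at either stage gave a ratio of -2.31, with another adult cell at 3300 CPM still included. Against adult cells 48 to 188, where 33.6% of cells had reads, the ratio was -2.31. Against the other adult cells, where 4 of 45 had reads and 1 cell held 73.7% of them, it was -3.26. Without the highest cells these ratios were -1.37 and -1.58. The share of 8.89% in the other adult cells was below the pubertal 11.7%, with overlapping intervals, so by share the direction was not kept there.

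Acly (chromosome 11, 100476352 to 100528000), which supplies the acetyl-CoA, did not follow Fasn. Pubertal and adult cells had 69.8 and 73.3 CPM of it, a log2 ratio of -0.07 (-0.19 to 0.05), and reads in 47.4% and 42.1% of cells. Acaca (chromosome 11, 84129635 to 84401651), the carboxylase between them, had 18.0 CPM at either stage, a log2 ratio of -0.01 (-0.25 to 0.23). Its adult value joined unlike sets, 9.72 CPM in cells 48 to 188 and 37.8 CPM in the other adult cells, where 1 cell held 68.2% of the reads. Acaca overlaps Tada2a and other genes in the annotation, and Acly, Scd2, Plin2, Xdh and Btn1a1 overlap small or uncharacterised genes, so some of their counts may belong to a neighbour.

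The desaturases went opposite ways. Scd1 had reads in 57 pubertal cells (33.3%, 26.3 to 40.9%) with a median of 150 and a highest value of 4060 CPM, and in 85 adult cells (55.9%, 47.6 to 64.0%) with a median of 110 and a highest value of 4510 CPM. The sums came to 165 CPM and 307 CPM, a log2 ratio of -0.90 (-0.96 to -0.83), just short of the 2-fold limit. It was -0.86 against adult cells 48 to 188, -0.99 against the others and -1.02 with TMM scaling, which passes that limit. Scd2 had reads in 51 pubertal cells (29.8%, 23.1 to 37.3%) with a median of 140 and a highest value of 990 CPM, and in 21 adult cells (13.8%, 8.76 to 20.3%) with a median of 30 and a highest value of 1980 CPM. Its summed level was 61.7 CPM and 22.0 CPM, a log2 ratio of 1.49 (1.31 to 1.67). That single highest cell held 59.1% of the adult reads of Scd2, and leaving out the highest cell at either stage gave a ratio of 2.63. Against adult cells 48 to 188 it was 1.32, and against the others 1.99.

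Plin2 (chromosome 4, 86626910 to 86670217), the droplet coat, had reads in 22.8% of pubertal cells, with a median of 100 and a highest value of 1810 CPM among them, and in 34.2% of adult cells, with a median of 80 and a highest value of 3250 CPM. Its levels were 94.7 CPM and 125 CPM, a log2 ratio of -0.40 (-0.50 to -0.30). Btn1a1 (chromosome 13, 23456984 to 23465914), the butyrophilin of the globule membrane, had reads in 14 pubertal cells (8.19%, 4.55 to 13.4%) and 54 adult cells (35.5%, 27.9 to 43.7%). These shares were further apart than the summed levels of 41.8 CPM and 75.5 CPM, whose log2 ratio was -0.86 (-0.99 to -0.72). Among the cells with reads the medians were 140 and 40 CPM, and the highest value 1780 and 1860 CPM. The ratio was -1.16 against adult cells 48 to 188 and 0.33 (0.08 to 0.60) against the other adult cells, so its direction depended on the set, while the share of cells with reads was above the pubertal share in both, at 38.3% and 28.9%. Xdh (chromosome 17, 73883895 to 73950397), the partner of butyrophilin, was scarce, with 26 reads in 6 pubertal cells and 138 reads in 17 adult cells. Its levels were 1.52 CPM and 9.08 CPM, a log2 ratio of -2.58 (-3.24 to -1.97), on the same side against either adult set (-2.04 and -3.38).

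Lpl (chromosome 8, 68880555 to 68906932), the lipase that frees fatty acids for uptake, had reads in 41 pubertal cells (24.0%, 17.8 to 31.1%) with a median of 70 and a highest value of 3720 CPM. In the adult it had reads in 17 cells (11.2%, 6.65 to 17.3%) with a median of 60 and a highest value of 1830 CPM. The sums were 79.4 and 33.0 CPM, a log2 ratio of 1.27 (1.12 to 1.42). The gap was wider against adult cells 48 to 188, where 5 of 107 cells had reads and the ratio was 2.31 (2.08 to 2.55). In the other adult cells 12 of 45 had reads, and the ratio was 0.11 (-0.06 to 0.29). Without the highest cells these ratios were 3.04 and 0.80.

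Ppara (chromosome 15, 85734910 to 85806851), the nuclear receptor, had 1 read in 1 pubertal cell and 136 reads in 5 adult cells. In those 5 cells its level was 30, 70, 100, 530 and 630 CPM, so 2 cells held most of the reads. The log2 ratio was -7.26 (-12.57 to -4.76), below the level at which genes were called, and -4.78 without the highest cells. Of the 5 cells, 3 were basal-like and 2 mature luminal-like, and 4 were among cells 48 to 188. Pdk4, a known target of this receptor, had reads in 3 of the 5 cells and Angptl4, another, in 2, while Cpt1a had none in any of them. Over all adult cells Pdk4 had reads in 30.3% and Angptl4 in 34.2%, and no association can be read from 5 cells.

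**Figure D2:**
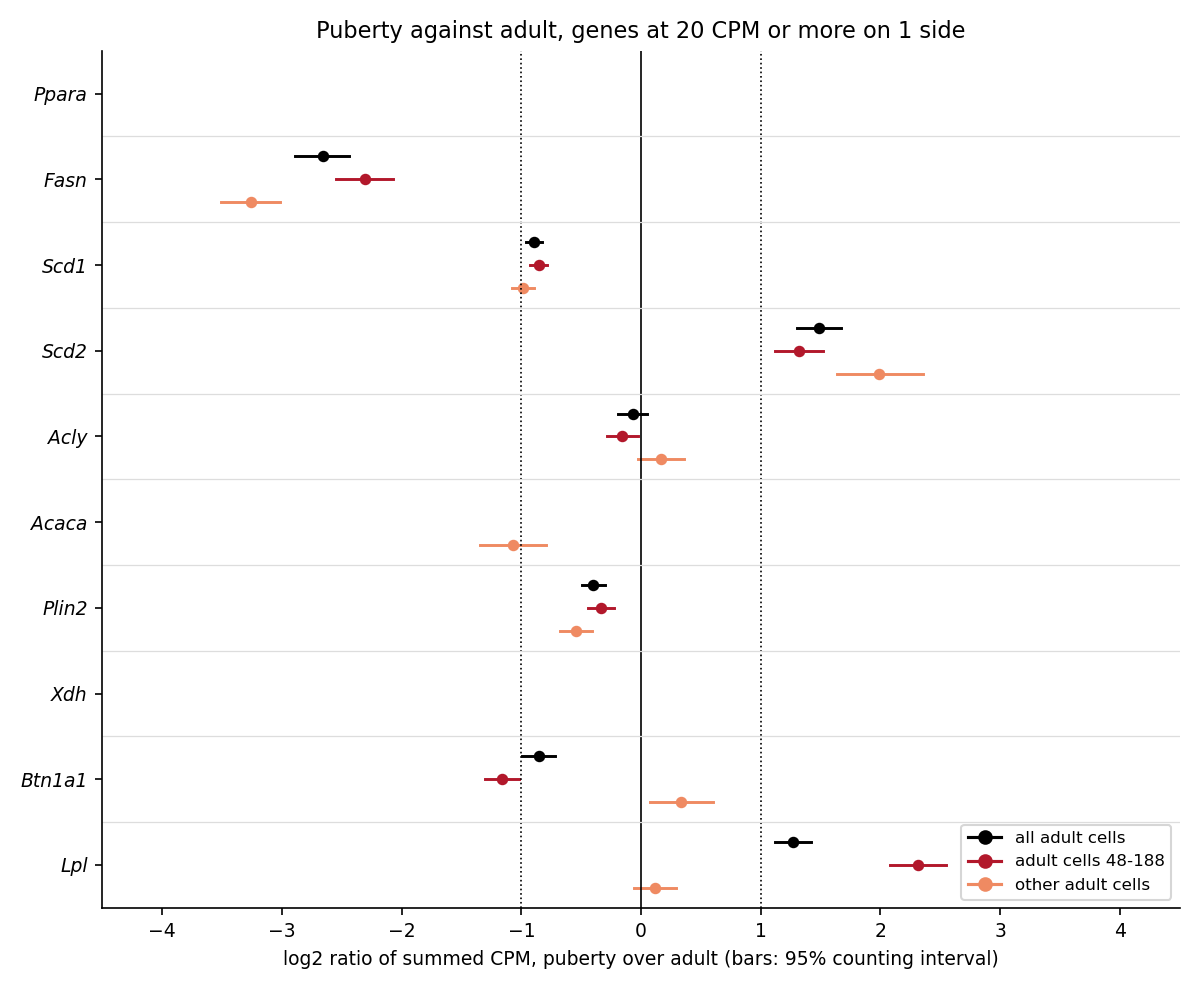
Log2 ratio of summed CPM, puberty over adult (x axis), for each gene that reached 20 CPM on 1 side (y axis), against all adult cells, adult cells 48 to 188 and the other adult cells; bars are 95% counting intervals and dotted lines mark a 2-fold difference. Fasn lies left and Scd2 right of the 2-fold lines in each comparison, whereas Btn1a1 and Lpl move with the adult set.

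The stages differed in their mix of classes, with 101 of 171 pubertal and 42 of 152 adult cells mature luminal-like, so the ratios were taken within classes too. Fasn was lower in puberty in each named class, with log2 ratios of -4.29 (-5.08 to -3.60) in luminal progenitor-like, -1.01 (-1.46 to -0.55) in mature luminal-like and -1.80 (-2.30 to -1.35) in basal-like cells. A lone adult cell held 80.2% of the reads in adult luminal progenitor-like cells, and without the highest cells that ratio was -3.44. In mature luminal-like cells its levels were 9.01 and 18.1 CPM, below the level for a call, and the shares of cells with reads were 9.90% and 9.52%. Scd2 was higher in puberty in mature luminal-like (1.34) and basal-like cells (1.38), or 2.44 and 4.05 without the highest cells, and in luminal progenitor-like cells it had only 9 and 11 reads. Scd1 changed sides: it was -2.08 (-2.21 to -1.95) in mature luminal-like, -0.44 in luminal progenitor-like and 1.17 (1.00 to 1.34) in basal-like cells, the last 0.70 without the highest cells. Plin2 and Btn1a1 also had opposite signs, at -1.50 and -1.77 in mature luminal-like cells and 0.94 and 0.84 in basal-like cells. A lone pubertal basal-like cell carried all 155 reads of Btn1a1 there, and without the highest cells the basal-like ratios were -0.66 for Plin2 and -3.93 for Btn1a1. In mature luminal-like cells they were then -0.66, which is no call, and -4.85. Lpl was 4.66 (3.29 to 6.55) in mature luminal-like cells, on 244 pubertal and 4 adult reads, 1.29 in basal-like cells and -0.21 (-0.46 to 0.04) in luminal progenitor-like cells. Without the 41 unnamed cells its ratio over all cells was 0.28 (0.09 to 0.48), and the called genes were 1 higher (Scd2) and 1 lower (Fasn) of 7, where 20.7% and 16.6% of all genes were called. Called genes numbered 0 higher and 2 lower among 7 tested in luminal progenitor-like cells, where 33.3% and 30% of all genes were called. The 2 were Fasn and Acaca (-1.36), and Acaca turned to 1.08 without the highest cells, 1 adult cell holding 89.2% of its adult reads there. They numbered 2 and 3 of 6 in mature luminal-like cells (29.1% and 20.2%) and 3 and 2 of 8 in basal-like cells (26.2% and 33.6%). No class kept the counts found over all cells.

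Across classes, 6 of the 10 genes had their highest level in luminal progenitor-like cells, namely Fasn, Scd1, Acly, Acaca, Plin2 and Btn1a1. The same held for 22.8% of the 9147 genes that reached 20 CPM in 1 class. In pubertal cells alone it was 2 genes (Scd1 and Btn1a1) where 23.4% of all genes were, in adult cells alone 7 where 23.5% were, and without the highest cell of each gene 4 (Scd1, Acly, Plin2 and Btn1a1) where 15.6% were. Scd1 and Btn1a1 are thus the genes that led in this class at each stage and in every other arrangement tried. Against mature luminal-like cells, 6 of the 8 genes that reached 20 CPM were called higher (20.4% of all genes) and 1 lower (27.7%), with a median log2 ratio of 2.12 against -0.18 over all genes. Of the 6, Fasn (2.82) and Acaca (1.20) rested on single cells, with 1.07 and -0.03 without the highest cells. In puberty 4 of 6 were higher (22.6%) and 1 lower (35.1%), and in the adult 6 of 8 (27.8%) and 1 (33.5%). Against basal-like cells, Scd1, Plin2, Btn1a1 and Lpl were called higher (26.1% of all genes) and Scd2 lower (27.6%). Scd2 was the lower gene in each of these comparisons.

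Scd1 had 626 CPM in luminal progenitor-like, 139 CPM in mature luminal-like and 150 CPM in basal-like cells. Its log2 ratio of luminal progenitor-like over mature luminal-like cells was 2.18 (2.10 to 2.26), and it was 2.87 in puberty and 1.23 in the adult. Scd2, its neighbour, was lowest where Scd1 was highest, with 20 reads (3.57 CPM) in luminal progenitor-like cells against 51.2 CPM in mature luminal-like and 44.5 CPM in basal-like cells. That ratio was -3.84 (-4.56 to -3.20) over both stages, -4.05 in puberty and -2.83 in the adult. In puberty 8.33% of luminal progenitor-like and 32.7% of mature luminal-like cells had Scd2 reads, and in the adult 15.6% and 19.0%, with overlapping intervals at both stages. At the level of single cells the desaturases did not exclude each other. In the adult 17 of 85 cells with Scd1 reads had Scd2 reads too (20.0%), against 4 of 67 cells without (5.97%), and in puberty the shares were 33.3% and 28.1%.

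Plin2 had 278 CPM in luminal progenitor-like, 66.1 CPM in mature luminal-like and 37.5 CPM in basal-like cells. Reads were found in 57.1% (43.2 to 70.3%), 18.2% (12.2 to 25.5%) and 26.5% (17.4 to 37.3%) of these cells, and the log2 ratio of the first class over the second was 2.07 (1.95 to 2.19). Btn1a1 had 189, 21.8 and 59.3 CPM in the same order, with reads in 51.8%, 11.9% and 26.5% of cells. It had no read in the 41 unnamed cells, which by the floor of 3 counts allows a share of up to 7.32%. Plin2 did have reads there, 37.8% of its pubertal and 5.05% of its adult reads. In puberty its level was not highest in luminal progenitor-like cells. Adult luminal progenitor-like cells had the largest shares of all, at 75.0% for Plin2, 68.8% for Btn1a1 and 71.9% for Scd1, against 33.3%, 29.2% and 45.8% of the pubertal ones.

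The genes of chain synthesis were set apart less clearly by class. Acly was level, at 76.8 CPM in luminal progenitor-like, 74.3 CPM in mature luminal-like and 73.0 CPM in basal-like cells, which were within counting error of each other. Within the stages it was not level, since the log2 ratio of luminal progenitor-like over mature luminal-like cells was -0.50 (-0.77 to -0.24) for pubertal and 0.74 (0.48 to 0.996) for adult cells. Fasn had 82.3, 11.7 and 71.9 CPM, but 1 cell held 77.2% of its luminal progenitor-like reads. Without the highest cell of each class the log2 ratio of luminal progenitor-like over basal-like cells went from 0.19 to -0.77, and by share of cells Fasn was found in 25.0% of the former and 32.5% of the latter. Acaca had 30.0, 13.1 and 17.0 CPM, and 1 cell held 69.0% of its luminal progenitor-like reads. Xdh had 54 reads in 7 luminal progenitor-like cells, all of them adult, where 24 pubertal ones had none. Its highest level was in the unnamed cells, at 18.5 CPM against 9.64 CPM, and they held 80.8% of its pubertal and 39.9% of its adult reads. Scd2 was highest there too, at 65.6 CPM, with 25.5% of its pubertal reads and none of its adult reads. Ppara had no read in the 56 luminal progenitor-like cells, which by the same floor allows a share of up to 5.36%.

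**Figure D3:**
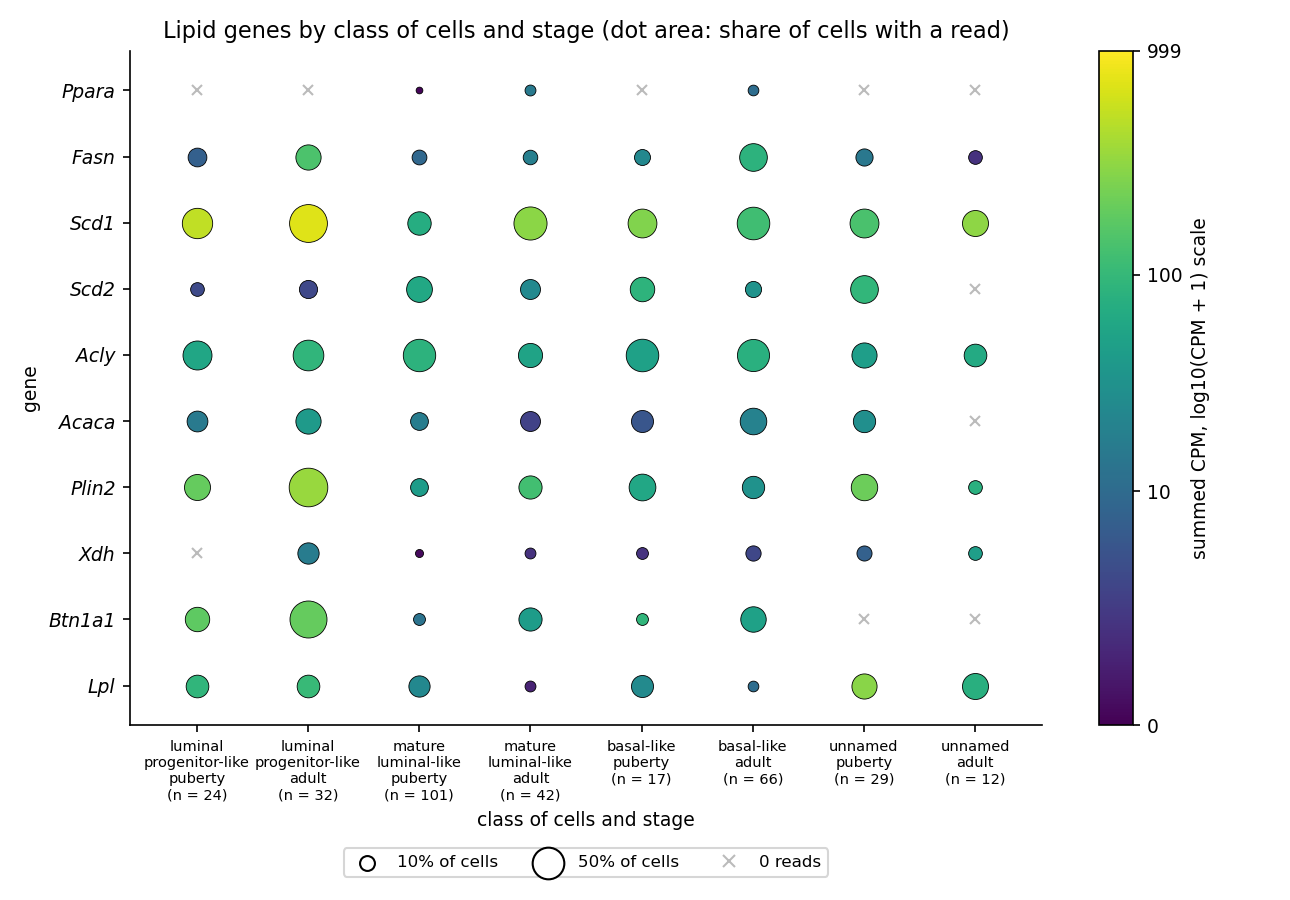
Summed level (colour, log10 scale of CPM + 1) and share of cells with a read (dot area) of each gene (y axis) by class of cells and stage (x axis, with the number of cells); crosses mark 0 reads. Scd1 and Btn1a1 are brightest in luminal progenitor-like cells at either stage, and Plin2 in the adult only. Scd2 is dim in that class, and Lpl is brightest in unnamed pubertal cells.

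Lpl was not highest in a named class. It had 230.5 CPM in the unnamed cells, 98.6 CPM in luminal progenitor-like, 17.3 CPM in mature luminal-like and 13.7 CPM in basal-like cells. In puberty the 29 unnamed cells held 62.8% of all Lpl reads, and 23 cells with reads of 3 or more fibroblast markers held 77.8%. Lpl had reads in 16 of those 23 cells, and its pubertal level without them was 20.3 CPM in place of 79.4 CPM. In the adult 13 such cells held 24.8% of the reads, and the level without them was 27.1 CPM in place of 33.0 CPM. Without such cells the pubertal level was therefore below the adult one, the reverse of the order over all cells. Fibroblast markers summed to 1428 CPM in puberty, 599 CPM in adult cells 48 to 188 and 2279 CPM in the other adult cells, all 8 with reads in each set. Lpl had 79.4, 16.0 and 73.3 CPM in these sets, so both were lowest in cells 48 to 188. The markers were highest in the other adult cells, where Lpl was not above its pubertal level. The 6 endothelial markers summed to 79.8, 9.53 and 51.6 CPM in the same order, and to 207 CPM in the unnamed cells. Of 10 adipocyte markers 6 were found in pubertal and 5 in adult cells, and their sums were 724, 434 and 1737 CPM in the same order. Among them, Plin1, Retn and Adrb3 had no read in any cell, and Adipoq, which defines adipocytes, had 15 reads in 1 pubertal cell. Fabp4, which endothelial cells and macrophages also express, was the exception, with reads in 22.2% of pubertal and 29.6% of adult cells. Fabp4 was found in 51.2% of the 41 pubertal cells with Lpl reads and 13.1% of the others, and the fatty acid transporter gene Cd36 in 61.0% and 10.0%. In the adult the shares were 52.9% and 26.7% for Fabp4 and 35.3% and 20.7% for Cd36, each with overlapping intervals. The fibroblast marker Dcn was found in 29.4% of the 17 adult cells with Lpl reads and 43.7% of the others. In puberty its shares were 34.1% and 22.3%, and its intervals overlapped at both stages. Fabp4 and Cd36 thus kept their direction at both stages, and Dcn did not. The part of these cells in the level of Lpl at each stage is the difference between the values given, and what the cells are was not tested.

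To relate the lipid genes to milk protein genes, cells were divided by their summed reads of 5 casein genes. Casein-positive cells had at least 10 casein reads of 100000 (100 CPM) and numbered 90 of 152 in the adult (59.2%) and 66 of 171 in puberty (38.6%). Of the 32 adult luminal progenitor-like cells 30 were casein-positive, as were 23 of 42 mature luminal-like and 32 of 66 basal-like ones. The part of this mix of classes in the ratios was read only by leaving luminal progenitor-like cells out. Of the 8 lipid genes that reached 20 CPM on 1 side, 6 were called higher in casein-positive adult cells (Fasn, Scd1, Acaca, Plin2, Btn1a1 and Lpl), where 23.6% of all 7568 genes tested were. Scd2 was called lower, as 23.2% of all genes were. The median log2 ratio of the 8 genes was 1.41, against -0.01 over all genes. In adult cells 48 to 188, 4 of 6 were higher (27.9%) and 1 lower (24.5%), and in the other adult cells 7 of 9 (31.7%) and 1 (34.8%).

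Btn1a1 was found almost wholly beside caseins. It had 1147 reads in 53 of 90 casein-positive adult cells (58.9%, 48.0 to 69.2%), with a median of 40 and a highest value of 1860 CPM in those 53. In the 62 casein-negative adult cells it had 1 read. The log2 ratio was 9.63 (7.15 to 14.93). In puberty it had 709 reads in 10 casein-positive cells (15.2%) and 5 reads in 4 casein-negative cells (3.81%), a ratio of 7.82 (6.59 to 9.44). Outside the luminal progenitor-like cluster the adult ratio was 9.02 (6.54 to 14.33), with reads in 51.7% and 1.67% of cells. The split therefore held in both stages and outside that class. In the other adult cells it had 149 reads in casein-positive cells and none in the casein-negative ones. With the latter set to a floor of 3 counts over the group, it was 36.3-fold higher. That is a log2 ratio of 5.18, with an interval that starts at 4.87.

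Plin2 had 198 CPM in casein-positive and 18.4 CPM in casein-negative adult cells, with reads in 46.7% (36.1 to 57.5%) and 16.1% (8.02 to 27.7%) of them. Its log2 ratio was 3.43 (3.16 to 3.72), and it stayed between 1.78 and 3.57 in the adult sets, in puberty and outside luminal progenitor-like cells. Scd1 had 407 and 162 CPM, a ratio of 1.33 (1.23 to 1.43), with reads in 64.4% and 43.5% of cells. It was 2.02 in adult cells 48 to 188, 0.30 in the other adult cells and 0.51 outside luminal progenitor-like cells. The droplet gene thus kept a wide gap where the desaturase gene did not.

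For the synthesis genes the sum and the share of cells parted. Fasn had 96.2 and 34.2 CPM, a ratio of 1.49 (1.27 to 1.72), but reads in 25.6% of casein-positive and 27.4% of casein-negative cells. Without the highest cells the ratio was 1.36 in all adult cells, 0.08 in adult cells 48 to 188, 4.53 in the other adult cells and -0.51 outside luminal progenitor-like cells. Acaca had 27.1 and 4.84 CPM, a ratio of 2.49 (1.94 to 3.08), with reads in 28.9% and 24.2% of cells. Acly, with 89.6 and 49.7 CPM, was not called (0.85), and in puberty it was lower in casein-positive cells (-1.13, -1.33 to -0.93). Xdh had about the same level on both sides, at 8.78 and 9.52 CPM, but a lone casein-negative cell held 93.2% of its 59 reads there. By share, Xdh was found in 15.6% (8.78 to 24.7%) of casein-positive and 4.84% (1.01 to 13.5%) of casein-negative cells.

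The calls for Scd2 and Lpl in this comparison did not hold. Scd2 had 13.7 CPM in casein-positive and 34.2 CPM in casein-negative adult cells, a ratio of -1.32 (-1.66 to -0.996), but 1 casein-negative cell held 93.4% of the reads on its side. Without the highest cell of each side the ratio was 1.55, and the share of cells with reads was higher beside caseins, at 17.8% against 8.06%. Lpl had a ratio of 1.05 (0.76 to 1.35) over all adult cells and -1.61 (-2.15 to -1.09) outside the luminal progenitor-like cluster. Outside that cluster 3 of 7 genes were called higher (Fasn, Plin2 and Btn1a1), where 24.3% of all genes were, and Lpl lower, where 24.8% were. In puberty 4 of 7 were called higher (Scd1, Acaca, Plin2 and Btn1a1), where 19.5% were, and 2 lower (Scd2 and Acly), where 19.6% were.

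**Figure D4:**
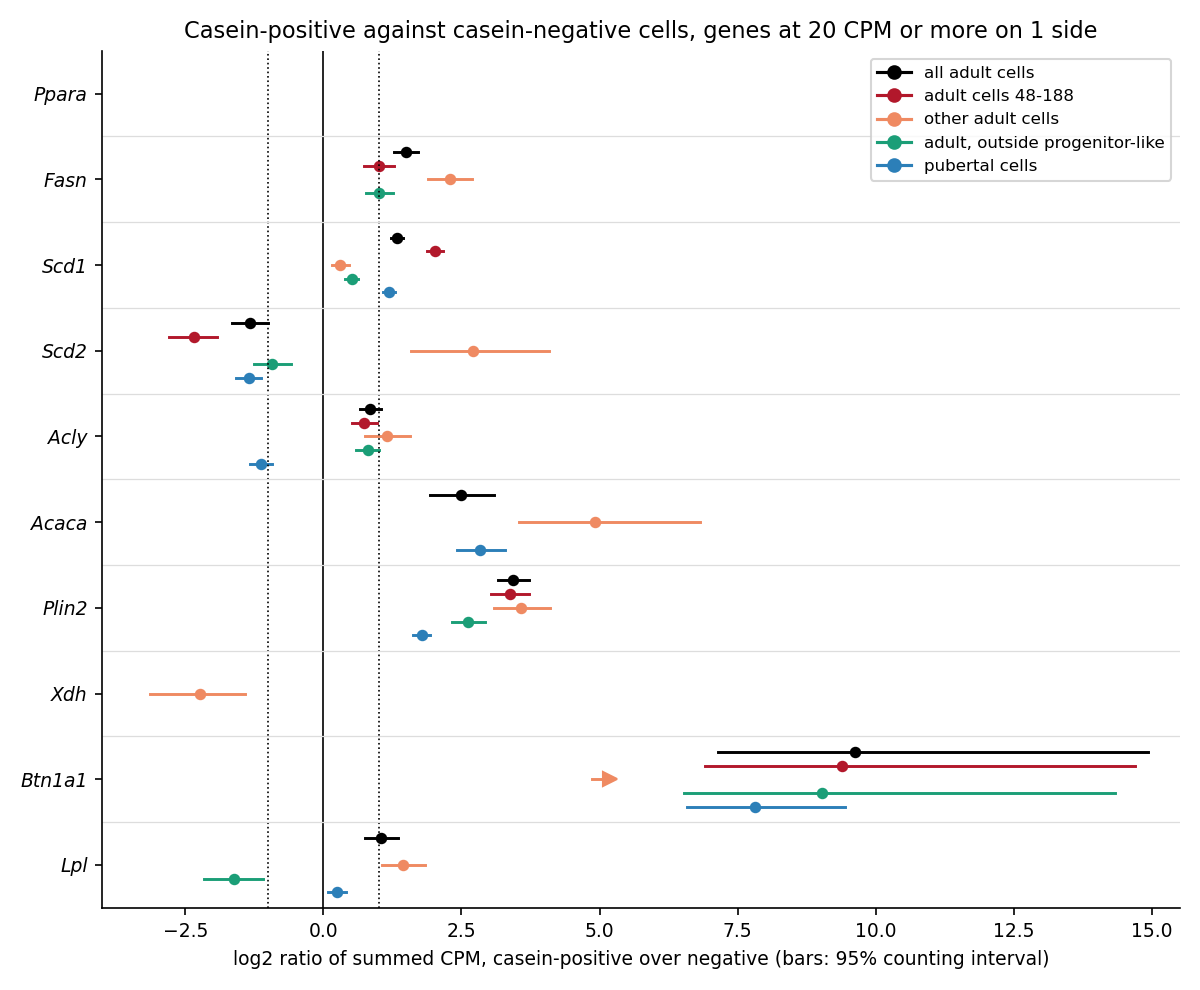
Log2 ratio of summed CPM, casein-positive over casein-negative cells (x axis), for each gene that reached 20 CPM on 1 side (y axis), in all adult cells, both adult sets, adult cells outside the luminal progenitor-like cluster and pubertal cells; bars are 95% counting intervals, dotted lines mark a 2-fold difference and the triangle is a lower bound against 0 reads. Btn1a1 and Plin2 lie right of the 2-fold line in every set, and Scd2, Acly and Lpl fall on both sides of 0.

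Across the 152 adult cells, which share a stage and were thinned to 1 depth, the Spearman correlation with the summed caseins was 0.64 for Btn1a1, 0.48 for Plin2, 0.31 for Xdh and 0.29 for Scd1. For Scd2, Lpl, Fasn, Acaca and Acly it lay between -0.06 and 0.14. These values and the ranks that follow pool the 2 adult sets, and none was taken within a set. The sets differed in the share of cells with reads, with Acly in 49.5% of cells 48 to 188 and 24.4% of the others. For Lpl the shares were 4.67% and 26.7%. Ranked among the 7247 genes found in at least 10% of adult cells, the genes most like Btn1a1 were Csn3, which encodes kappa casein (0.68), Spp1, which encodes osteopontin (0.54), and Lancl3 (0.53). Those most like Plin2 were Trf, which encodes transferrin (0.48), Csn3 (0.46) and Plet1 (0.45), and Plet1 was also among the 3 most like Scd1 (0.41). Acly had Cd36 (0.48), Rrm2, a subunit of ribonucleotide reductase (0.48), and Elovl4, a fatty acid elongase (0.47). The nearest genes were Slc5a3 (0.44) for Fasn, Aldh18a1 (0.41) for Scd2, Adk (0.43) for Acaca, Lbp (0.44) for Xdh and Cxcl2 (0.38) for Lpl. No casein was among the 3 genes nearest to these 5.

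The 3 genes of the globule coat, Btn1a1, Plin2 and Xdh, were read together in 10 of 323 cells, 9 adult and 1 pubertal, and all 10 were casein-positive. Since Btn1a1 alone had reads in 58.9% of casein-positive and 1.61% of casein-negative adult cells, this adds little beyond that gene. In the adult, Plin2 was found in 53.7% (39.6 to 67.4%) of cells with Btn1a1 reads and 23.5% of those without, whose interval ends at 33.1%. Xdh was found in 20.4% and 6.12% of the same cells. Within the 56 luminal progenitor-like cells alone Plin2 was found in 72.4% and 40.7% of cells with and without Btn1a1 reads, with overlapping intervals. Fasn and Acaca, which act in adjacent steps, did not share cells in this way, since Acaca was found in 27.5% of adult cells with Fasn reads and 26.8% of those without. Acly was found in 62.5% (45.8 to 77.3%) and 34.8% (26.1 to 44.4%) of these cells, but both genes were found in more cells of the adult set 48 to 188 than of the other. In puberty the shares for Acly were 50.0% and 47.0%, and in luminal progenitor-like cells 42.9% and 45.2%, so no such difference was seen there.

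**Figure D5:**
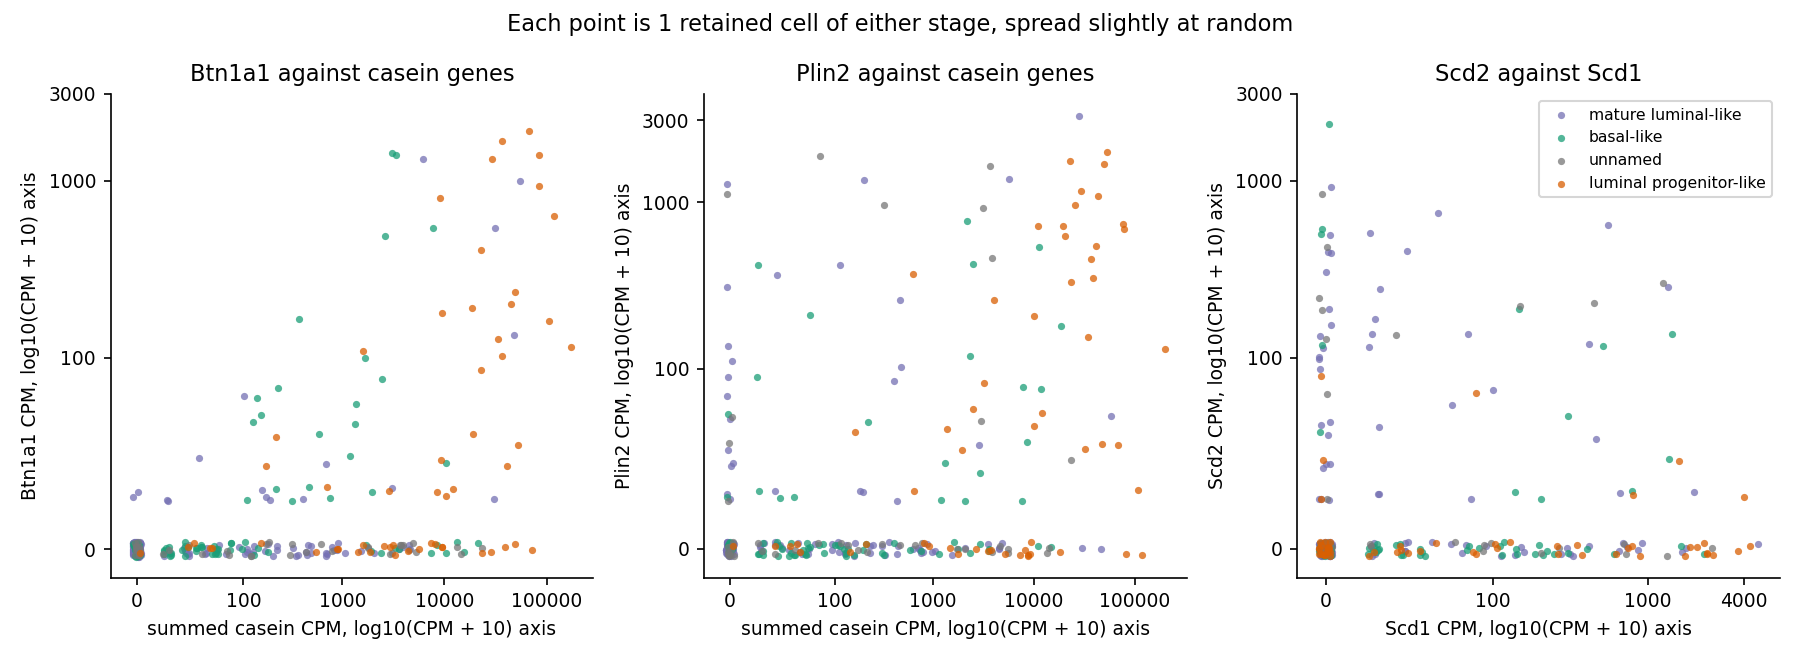
CPM of Btn1a1 and Plin2 against summed casein CPM, and of Scd2 against Scd1, in each of the 323 retained cells of both stages (log10 axes of CPM + 10, points coloured by class and spread slightly at random). Nearly all cells with Btn1a1 reads lie at 100 casein CPM or more, whereas Plin2 is also seen in cells with no casein reads, and few luminal progenitor-like cells have Scd2 reads.

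Other genes of the pathway were taken from lists, and those at 20 CPM in 1 stage were read for calls beside the background of 20.3% higher and 14.7% lower. Of 8 genes of synthesis, elongation and desaturation, 2 were called higher in puberty, the elongases Elovl6 (53.0 and 13.3 CPM) and Elovl5 (69.9 and 30.3 CPM), and 1 lower, the desaturase Fads1 (59.9 and 125 CPM). So these elongases lay on the side of Scd2, not of Fasn. Of 6 genes that supply acetyl-CoA and NADPH, Idh1, which makes NADPH, was higher in puberty (341 and 98.4 CPM, log2 ratio 1.79) along with G6pdx, and the citrate carrier gene Slc25a1 was lower (39.1 and 124 CPM, -1.66). Of 6 regulators, Insig1 and Thrsp were lower and none higher. Insig1, which retains sterol-regulated factors in the endoplasmic reticulum, had 15.3 and 37.2 CPM (-1.28), and Srebf1, which encodes the factor that drives lipid synthesis genes, was not called (0.86). Without the highest cells the ratio of Insig1 was -0.47. Against adult cells 48 to 188 and the other adult cells in turn, the elongases and Idh1 kept their calls, with Elovl6 at 2.23 and 1.56. Fads1 (-0.80), G6pdx (0.51) and Insig1 (-0.45) lost theirs against the other adult cells, where Srebf1 was called (1.25), and Slc25a1 (-0.96) lost its call against cells 48 to 188.

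Of 9 genes of fatty acid uptake and activation 3 were higher in puberty, among them Acsl4 (335 and 108 CPM) and Slc27a1 (28.1 and 12.0 CPM), and none lower. Of 4 genes of triglyceride synthesis 2 were lower in puberty and none higher: Lpin1, a phosphatidate phosphatase gene (26.0 and 76.9 CPM, -1.56), and Dgat2, which adds the last fatty acid (23.3 and 52.2 CPM, -1.16). Of 6 other droplet and globule genes, Mfge8, a globule membrane protein gene (308 and 950 CPM, -1.62), and Muc1 (-1.27, but -0.22 without the highest cells) were lower, and Plin3, a perilipin gene, was higher (90.1 and 31.6 CPM, 1.51). Both called genes of lipolysis, of 3 tested, were lower, with Pnpla2, which encodes the first lipase of stored fat, at -1.92 and Mgll at -1.41. The droplet and globule calls rested on adult cells 48 to 188, where Mfge8 was at -1.99, Muc1 at -1.59 and Plin3 at 2.03. Against the other adult cells none of these 3 was called, with 0.06, 0.03 and 0.73, and neither was Pnpla2 (-0.17). Lpin1 and Mgll kept their calls against both sets, Dgat2 lost its call against cells 48 to 188 (-0.43), and Acsl4 and Slc27a1 kept theirs.

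The same lists differed by class. Against mature luminal-like cells, luminal progenitor-like cells had 6 of 10 uptake and activation genes called higher (Cd36, Slc27a3, Acsl1, Fabp5, Lmf1 and Dbi) and none lower, beside 20.4% and 27.7% of all genes, though without the highest cells Cd36 (0.71) and Slc27a3 (-1.80) fell short. They had 3 of 6 droplet and globule genes higher, with Mfge8 at 2027 and 218 CPM. Slc25a1, G6pdx and Idh1 were lower in them, 3 of 6 supply genes, with none higher. In puberty 4 of 6 supply genes were lower (Me1 besides these 3) and none higher, beside 35.1% and 22.6% of all genes. In the adult Slc25a1 and G6pdx were lower and Me1 was higher, of 6, beside 33.5% and 27.8% of all genes. The ratio of Fasn was -0.35 (-1.19 to 0.41) in puberty and 2.94 in the adult, or 1.61 there without the highest cells. A link between Fasn and the supply genes was not tested.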

How the data were processed

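The authors deposited raw counts of read pairs per Entrez gene, 1 table per cell, aligned to mm10 with Subread and assigned with featureCounts and the RefSeq annotation inbuilt in Rsubread; versions, use of strand and treatment of reads shared by paralogs are not given in the sources used here. Libraries were made with Nextera XT from C1 cDNA without molecular identifiers. A combined table was not used.

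Of 27179 identifiers 25275 matched RefSeq on GRCm38.p6, and the rest, with 1.84% of read pairs, as well as 15 mitochondrial genes and 124 of ribosomal proteins, were not used. Cells passed at 100000 read pairs and 1500 genes and were thinned to 100000 without replacement (seed 1). Fewer cells passed than in the study, for a reason not known. Chambers had been inspected by microscope, and no doublet caller was run. CPM and RPKM were computed from sums of thinned counts over cells, log2 ratios without a prior. Intervals are exact (Poisson, Clopper-Pearson, conditional binomial). A gene was called at 2-fold if it reached 20 CPM on 1 side, and a side at 0 was set to 3 counts. With 1 sample per stage there is no test.

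Cells were clustered by Ward linkage into 4 clusters on standardised log2(CPM + 10) of 38 basal and luminal markers, and a cluster was named if at least 3 markers of a list were found in 50% of its cells and 20 points above the other cells. Names may differ from those of the study. Named genes are the 10 chosen, the 2 of each list with the largest ratio of the stages (at 20 CPM, found in 10% of cells, under 50% of reads in 1 cell) and the 3 genes with the highest Spearman correlation over adult cells; others are called genes named to complete small counts, chosen after their values were seen. The genes of 1 list are not reported here. The genes and lists were chosen with earlier results of these data known. Ratios were tested on simulated data in which cells of a stage differed by counting error only. That test does not cover genes whose reads lie mostly in a few cells. Alternatives were unthinned sums, a prior of 1 CPM, TMM factors (edgeR 4.0.16, R 4.3.3), no filter, 200000 read pairs and 2500 genes, other clusterings, casein minimums of 1 and 100 reads, and leaving out sets of cells; those by class, without the unnamed cluster, outside luminal progenitor-like cells and in pubertal casein-positive cells were added after seeing the data. Scripts used Python 3.11.15, numpy 2.4.6, scipy 1.17.1 and pandas 2.3.3.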

Additional observations from a re-analysis of the deposited data

How the results depend on the processing

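Over all cells, 2 genes were called higher and 1 lower in puberty. The number higher was 1 against the other adult cells, 1 without the unnamed cluster and 0 in luminal progenitor-like cells. The number lower was 2 with TMM factors, on leaving out each highest cell, against either adult set, in basal-like cells and in luminal progenitor-like cells, and 3 with no filter on low values and in mature luminal-like cells. The ratio of Fasn kept its direction in each of these. In casein-positive adult cells 6 were higher and 1 lower. The number higher was 3 outside the luminal progenitor-like cluster, and the number lower was 0 at a minimum of 1 casein read and without the highest cells, and 2 in pubertal cells. Of 6 genes highest in luminal progenitor-like cells, 2 were so in pubertal cells. The median share of cells with reads, over the genes and stages, was 23.4%, and 9.36% at a minimum of 5 reads.

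For all pubertal over all adult cells, and casein-positive over casein-negative adult cells, signs of called ratios turned in 6 cases under the alternatives. Turns of ratios under 2-fold are given above. The ratio of Lpl, puberty over adult, was -0.21 in luminal progenitor-like cells. For casein-positive over casein-negative cells, Scd2 was at 3.21 with 1 casein read, 2.72 in the other adult cells and 1.55 without the highest cells, and Lpl at -0.78 with 1 casein read and -1.61 outside luminal progenitor-like cells. Called ratios within subsets of cells turned too without the highest cells. Among them were Acaca, puberty over adult in luminal progenitor-like cells (-1.36 to 1.08), and Acaca, luminal progenitor-like over mature luminal-like (1.20 to -0.03). Fasn, casein-positive over casein-negative outside luminal progenitor-like cells, went from 1.01 to -0.51. The order of the stages for Lpl also turned without cells with reads of 3 or more fibroblast markers. The cause was not tested. Complete linkage gave no luminal progenitor-like cluster, and only 2 adult cells of that class were casein-negative, so these alternatives gave no value. No paired analysis was possible because the numbers in the titles only name cells. At 100000 read pairs a level below 10 CPM in a cell cannot be read, and animals, captures and stages cannot be told apart.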

Other observations

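Genes of fatty acid oxidation and known Ppara targets gave no common direction between the stages. Of 12 tested, 2 were called higher in puberty (Cpt2 and Acadl) and 3 lower (Acadvl, Pdk4 and Angptl4), beside 20.3% and 14.7% of all genes. Angptl4, a secreted inhibitor of lipoprotein lipase, had 39.5 CPM in pubertal and 188 CPM in adult cells, with a log2 ratio of -2.25 (-2.37 to -2.13), opposite in sign to Lpl. Pdk4, a kinase gene that restrains pyruvate oxidation, had 55.4 and 136 CPM, a ratio of -1.29 (-1.41 to -1.18), and -0.86 without the highest cells. Against adult cells 48 to 188 and the other adult cells, Angptl4 was at -1.52 and -3.21, and Pdk4 at -0.19, which is no call, and -2.48.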
